A study of Mus musculus with 10 samples.

Results

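Effector CD4 T cells without Foxp3, Eomes or Ccr7 transcripts were described in mouse livers that carried colorectal cancer metastases, from 10x single-cell transcriptomes paired with T cell receptor sequences. Members were chosen by measured values: a barcode counted when it had at least 300 genes, at most 15% mitochondrial counts, a productive T cell receptor beta chain (TRB) contig, at least 1 unique molecular identifier (UMI) of Cd4 and none of Cd8a, Foxp3, Eomes or Ccr7. Barcodes with the TRAV11 or TRAV11D and TRAJ18 alpha chain of invariant natural killer T cells were left out. The gate gave 845 members among 27707 kept barcodes of 5 livers.

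The livers came from 3 groups: IFNa + aCTLA4 (liver 22, called the combination here), IFNa (livers 18 and 23) and Control (livers 11 and 25). Mice of the IFNa groups received a lentiviral vector (LV) for IFNa, a type I interferon, with antibody against CTLA-4 added in the combination, and Control mice received a control LV. All livers held metastases, and viable, 7AAD-negative cells were sorted without antibody staining, so no gate enriched for T cells. Strain, age, time after treatment and the promoter of the vector are not given in the sources used here, and no label states that the livers are from different mice. The p-values therefore describe only how these libraries vary. Members numbered 528 in the combination, 105 and 126 in IFNa livers 18 and 23, and 69 and 17 in Control livers 11 and 25.

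CD4 T cells recognise peptides on MHC class II and act mainly on other cells: through CD40 ligand (Cd40lg) they license B cells, dendritic cells and macrophages, and through cytokines they direct other immune cells. T helper 1 cells use the transcription factor T-bet (Tbx21) and make interferon gamma, T helper 2 cells use GATA3 and make interleukins 4, 5 and 13, and follicular helper cells use BCL6 and make interleukin 21. Regulatory T cells are marked by the transcription factor FOXP3 and high interleukin 2 receptor alpha, and naive and central memory cells carry CCR7, which takes them to lymph nodes. Type I interferon binds IFNAR1 and IFNAR2 and, through JAK1, TYK2 and downstream transcription factors, switches on a set of antiviral genes.

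The gate used measured values, so Cd4, Cd8a, Foxp3, Eomes and Ccr7 were not tested in any comparison. At the edge of the gate, 123 members of the combination, 35 and 30 members of IFNa livers 18 and 23, and 27 and 6 members of Control livers 11 and 25 had a single Cd4 UMI. Just outside, 20 CD4 T cells of the combination, 24 and 22 of IFNa livers 18 and 23, and 29 and 1 of Control livers 11 and 25 had a single Foxp3 UMI. These cells held Ikzf2, a transcription factor of regulatory T cells, at 593 CPM in the combination, 1385 and 1359 in IFNa livers 18 and 23, and 1424 and 1795 in Control livers 11 and 25. Cells just outside with a single Ccr7 UMI numbered 45 in the combination, 19 and 9 in IFNa livers 18 and 23, and 12 and 4 in Control livers 11 and 25.

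The markers of the label were only partly borne out. Cd40lg was detected in 64.8% of members in the combination, 53.3% and 58.7% in IFNa livers 18 and 23, and 36.2% and 70.6% in Control livers 11 and 25, whereas 0% to 1.71% of B cells (Cd79a-positive barcodes with no TRB) had a UMI of it. Many CD4 T cells with Ccr7 but no Foxp3 or Eomes held Cd40lg too. Their shares were 56.5% in the combination, 41.8% and 51.2% in IFNa livers 18 and 23, and 36.7% and 40% in Control livers 11 and 25. Members were deeper (median 5969.5 UMIs in the combination, 5173 and 6390 in IFNa, 5041 and 5591 in Control) than B cells (4731, 3978 and 4489.5, 3810 and 5412.5, in the same order of livers). After each cell was thinned to 1500 UMIs, the expected share of members with Cd40lg was 29.1% in the combination, 27.7% and 24.8% in IFNa livers 18 and 23, and 14.5% and 38.9% in Control livers 11 and 25, against at most 0.675% of B cells. Itgb1, the integrin beta 1 chain, was detected in 40.1% to 54.3% of thinned members and 4.94% to 9.18% of thinned B cells. Ccr4, a chemokine receptor, was found in only 3.54% to 10.6% of thinned members, with a share of at most 0.378% in B cells. Transcripts typical of the neighbouring classes were present in many members. Il2ra or Ikzf2 had a UMI in 51.7% of members in the combination, 47.6% and 67.5% in IFNa livers 18 and 23, and 50.7% and 58.8% in Control livers 11 and 25.

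No doublet caller was run. A possible doublet, meaning a second TRB contig or at least 3 UMIs of macrophage, B cell or neutrophil markers, made up 17.6% of members in the combination, 25.7% and 19.1% in IFNa livers 18 and 23, and 17.4% and 23.5% in Control livers 11 and 25. The 8 macrophage and monocyte markers summed to 645 CPM (UMIs scaled to a common total) in members of the combination, 627 and 842 CPM in IFNa livers 18 and 23, and 1448 and 41.6 CPM in Control livers 11 and 25. The 6 plasma cell markers summed to 558 CPM in the combination, 117 and 97.9 CPM in IFNa, and 169 and 41.6 CPM in Control. Hepatocyte transcripts were at or near 0 (at most 6.12 CPM, with Apoc3 and Mup20 at 0 in all livers). Epithelial markers summed to 9.17 CPM in the combination, 23.2 and 115 in IFNa livers 18 and 23, and 286 and 16.6 in Control livers 11 and 25. In the same order, erythroid markers gave 31.1, 10.8 and 179.5, 50.6 and 8.31 CPM. NK cell markers gave 295, 457 and 406, 486 and 16.6 CPM. The possible-doublet rule did not use epithelial, erythroid or NK cell markers. Libraries shared 386 kept barcodes over all pairs of livers, and none was a member. Control liver 25 had 846 kept barcodes against 5532 to 9535 in the other livers, and its 17 members hold 117574 UMIs in all, against 458745 to 4020524 elsewhere.

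Effector cells made up more of the CD4 T cells in the combination liver than in any other. They were 62.7% of CD4 T cells in the combination (exact 95% binomial interval 59.3% to 66%), 33.9% (28.6% to 39.4%) and 40.1% (34.7% to 45.8%) in IFNa livers 18 and 23, and 21.9% (17.5% to 26.9%) and 32.1% (19.9% to 46.3%) in Control livers 11 and 25. The interval of the combination did not overlap that of any other liver, whereas that of Control liver 25 covered both IFNa values. The intervals cover counting error only. Both IFNa livers lay above both Control livers, and the mean difference of 10.01 percentage points had an exact two-sided permutation p of 0.3333, the smallest that 2 livers against 2 allow. The combination is 1 liver, so its difference from either group had no replicate test.

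By group, Foxp3 cells ran in the opposite order, at 18.5% of CD4 T cells in the combination, 39.4% and 45.2% in IFNa livers 18 and 23, and 52.4% and 49.1% in Control livers 11 and 25. Within IFNa, liver 23 was above liver 18 in both the effector and the Foxp3 share. There were 3.39 members for each Foxp3 cell in the combination, 0.861 and 0.887 in IFNa, and 0.418 and 0.654 in Control. Both measures put the combination apart from the other livers, and the IFNa and Control values did not overlap in either. They are not independent of the effector share, because the classes are parts of the same CD4 total and members hold no Foxp3 UMI. As a share of all kept barcodes the members were 5.54% in the combination, 1.69% and 2.28% in IFNa livers 18 and 23, and 1.23% and 2.01% in Control livers 11 and 25, so the IFNa and Control livers overlapped (exact permutation p = 0.6667). Among all TRB-bearing barcodes, CD8 T cells included, the shares were 15.5% in the combination, 12.7% and 11.2% in IFNa, and 8.73% and 13.7% in Control, also overlapping (exact permutation p = 1.0). Foxp3 cells were deeper (median 10123 UMIs in the combination, 8111.5 and 10442.5 in IFNa, 6790 and 10054 in Control) than members, and detection of a Foxp3 UMI depends on depth. Thinning to 1500 UMIs before the gate left 403 CD4 T cells in the combination, 154 and 151 in IFNa, and 132 and 22 in Control. The share among them was 81.1% in the combination, 65.6% and 72.9% in IFNa, and 51.5% and 63.6% in Control. Both IFNa livers were still above both Control livers, but the value of liver 25 rests on 22 cells. Without possible doublets the share was 72.5% in the combination, 41.7% and 63% in IFNa livers 18 and 23, and 31% and 41.9% in Control livers 11 and 25, so the IFNa and Control livers overlapped.

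**Figure D1:**
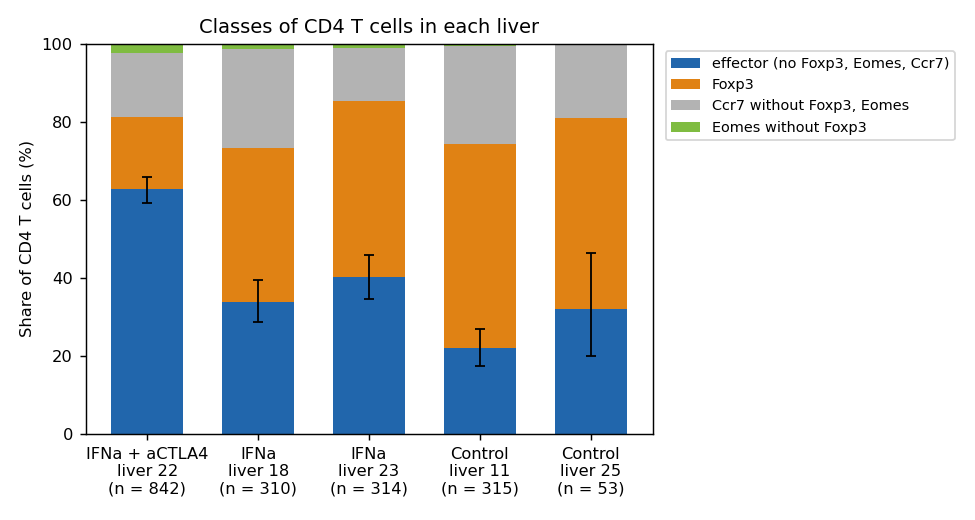
Share of CD4 T cells (%, vertical axis) in each of 4 classes by group and liver, with n the number of CD4 T cells; error bars are exact 95% binomial intervals on the effector share. The effector share was 62.7% in the combination, 33.9% and 40.1% in IFNa, and 21.9% and 32.1% in Control.

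Genes of the type I interferon response were higher in members of both interferon-treated groups than in Control members. Gene levels are CPM, from UMIs summed over the members of a liver with TMM (trimmed mean of M-values) scaling, and log2 fold changes are from edgeR's quasi-likelihood test in 1 fit of the 3 groups over 9300 genes with Benjamini-Hochberg adjustment. The promoter of Isg15, a ubiquitin-like antiviral modifier, is shown because it carries the letters GAAA, any 2 bases and GAAA again, the core of the interferon-stimulated response element. The window runs from 250 bases before to 50 bases after the gene start on the minus strand (RefSeq, GRCm38.p6, chr4:156200769-156201068), and capitals mark the pattern, which occurs 3 times in overlapping copies, the first starting 78 bases before the gene start.

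Isg15 promoter: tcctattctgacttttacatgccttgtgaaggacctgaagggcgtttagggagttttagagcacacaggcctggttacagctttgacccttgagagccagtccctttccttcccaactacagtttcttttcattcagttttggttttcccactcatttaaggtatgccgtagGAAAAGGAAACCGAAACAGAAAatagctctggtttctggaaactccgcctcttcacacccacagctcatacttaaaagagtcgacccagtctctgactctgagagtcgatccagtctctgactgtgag

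Of the 62 genes on the interferon list, 48 had a promoter in the RefSeq table, and 22 of them (45.8%) held the pattern or its reverse complement (TTTC, any 2 bases, TTTC), overlapping copies included, within 300 bases, against 943 of all 27025 promoters (3.49%). No copy was found in the window of Irf7, and Ifi27l2a was not in the table. A match describes letters and not binding.

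Ifi27l2a, an interferon-induced gene of mitochondria, on chromosome 12, gave 7583 CPM in the combination, 7052 and 6740 CPM in IFNa livers 18 and 23, and 1655 and 1671 CPM in Control livers 11 and 25. The 3 interferon-treated livers were all above both Control livers, with no overlap. Every member of the combination and of both IFNa livers held a UMI of it, compared with 82.6% and 88.2% of members in Control livers 11 and 25. The log2 fold change was 2.05 ± 0.19 (SE) in IFNa over Control (edgeR adjusted p = 0.0328) and 2.19 ± 0.21 in the combination over Control (adjusted p = 0.00647). It was the only gene called in IFNa over Control (0.0108% of the genes tested). By the same test 0 genes passed without liver 22, 38 without Control liver 11, 41 without IFNa liver 23 and 94 without IFNa liver 18, while DESeq2 called 13.

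Irf7, a transcription factor that drives interferon genes, on chromosome 7, gave 568 CPM in the combination, 592 and 621 CPM in IFNa livers 18 and 23, and 114 and 99.8 CPM in Control livers 11 and 25. All 3 interferon-treated livers were above both Control livers. The log2 fold change was 2.38 ± 0.30 in the combination over Control (edgeR adjusted p = 0.030) and 2.48 ± 0.27 in IFNa over Control, where the adjusted p of 0.058 missed the threshold. Isg15 gave 774 CPM in the combination, 749 and 737 CPM in IFNa, and 231 and 175 CPM in Control. Ifit1, which binds viral RNA, gave 186 CPM in the combination, 207 and 188 CPM in IFNa, and 55 and 91.5 CPM in Control. Both genes were higher in each interferon-treated liver than in either Control liver, with adjusted p of 0.17 and 0.52 in IFNa over Control by edgeR.

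Across the list, 60 of the 62 genes were tested. In IFNa over Control 1 gene passed adjustment, 44 had an unadjusted p under 0.05 in the higher direction (2.23% of all genes did), and 53 had both IFNa livers above both Control livers (18.6% of all genes did). The median log2 fold change was 1.20 over the list and 0.0092 over all genes. In the combination over Control, 2 passed adjustment (0.129% of all genes did in the higher direction), 39 had an unadjusted p under 0.05 in that direction against 1.84% of all genes, and the median was 1.13 against 0.0087. These comparisons share the Control libraries. In the combination over IFNa no list gene passed adjustment or had an unadjusted p under 0.05 in either direction (edgeR; 1.34% of all genes did), and the median was -0.06. Ly6c2 and Ly6c1 on the list are near-identical paralogs, and Ly6c2 went with no group (1049 CPM in the combination, 932 and 586 CPM in IFNa, 79.2 and 1339 CPM in Control).

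**Figure D2:**
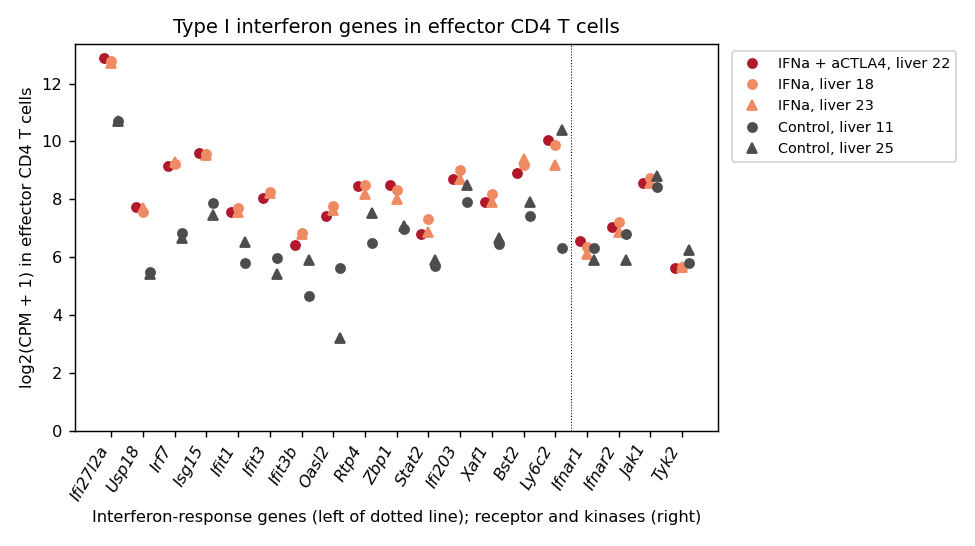
Level of interferon-response genes (left of the dotted line) and of the interferon receptor chains and kinases (right) in effector CD4 T cells, as log2(CPM + 1) with 1 point per liver; genes were picked to show the range of the list. For Ifi27l2a, Irf7 and Isg15 the 3 interferon-treated livers sit above both Control livers, whereas for Ifnar1, Jak1 and Ly6c2 the groups overlap.

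None of the 12 receptor and signalling genes passed adjustment in IFNa over Control by edgeR; 4 had an unadjusted p under 0.05 in the higher direction and 1 in the lower, against 2.23% and 1.41% of all genes, and the median log2 fold change was 0.29. Ifnar1 gave 92.7 CPM in the combination, 80.3 and 68.4 CPM in IFNa, and 79.2 and 58.2 CPM in Control. Jak1 gave 375 CPM in the combination, 430 and 374 CPM in IFNa, and 339 and 449 CPM in Control. For IFNa over Control the log2 fold changes were 0.04 ± 0.33 for Ifnar1 and 0.05 ± 0.26 for Jak1 (edgeR adjusted p = 1 for each), and the sign of each changed under some alternatives.

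In IFNa over Control none of the 21 tested genes induced mainly by interferon gamma passed adjustment in edgeR and 7 had an unadjusted p under 0.05 in the higher direction, against 2.23% of all genes, with a median log2 fold change of 0.39. None of the 19 tested MHC class I genes passed either, while 14 had both IFNa livers above both Control livers, against 18.6% of all genes, and the median was 0.36. B2m, the light chain of MHC class I, gave 2745 CPM in the combination, 2260 and 2829 CPM in IFNa, and 2150 and 1796 CPM in Control.

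The IFNa effect on these genes was set against that in the other CD4 T cells of the same livers with the library as a block. None of 60 tested list genes passed adjustment in the difference between members and Foxp3 cells (0.105% of all genes did in either direction; 2 list genes had an unadjusted p under 0.05 upward and 4 downward, against 1.86% and 2.47% of all genes, with a median of -0.15). None passed in the difference between members and Ccr7 cells either (0.0322% of all genes did), but there 15 had an unadjusted p under 0.05 in the direction of a smaller effect in members, against 2.37% of all genes, and 0 in the other direction, against 1.04%, with a median difference in log2 fold change of -0.58. Ifi27l2a is an example: Ccr7 CD4 cells held 5770 CPM in the combination, 4081 and 5176 CPM in IFNa and 504 and 882 CPM in Control, so their Control level was below that of the members. The Ccr7 class of Control liver 25 has 10 cells.

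Helper cytokines and their regulators varied mostly between livers, and no T helper gene passed adjustment between treatments. Tbx21 gave 118 CPM in the combination, 97.3 and 119 CPM in IFNa livers 18 and 23, and 55 and 83.1 CPM in Control livers 11 and 25. Ifng gave 255 CPM in the combination, 150 and 612 CPM in IFNa, and 61.6 and 116 CPM in Control. Both genes were higher in every interferon-treated liver than in either Control liver, with adjusted p of 1 and 0.94 in IFNa over Control by edgeR. In IFNa liver 23, a single cell held 330 of the 600 Ifng UMIs. The share of thinned members with an Ifng UMI was 14.4% in the combination, 9.04% and 20.2% in IFNa, and 6.73% and 9.64% in Control, so the groups overlapped, while thinned B cells were at 3.25% or less. Cxcr6, a chemokine receptor of liver and tumour T cells, gave 599 CPM in the combination, 357 and 674 CPM in IFNa, and 295 and 299 CPM in Control. The 14 T helper 1 genes had a median log2 fold change of 0.15 in IFNa over Control and 0.72 in the combination over Control, against 0.0092 and 0.0087 over all genes.

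T helper 2 cytokines were found in few members. At least 1 UMI of Il4, Il5 or Il13 was present in 26 of 528 members of the combination (4.92%, exact 95% interval 3.24% to 7.13%), spread over 24 TRB clonotypes, and in 4 of 105 and 8 of 126 members of IFNa livers 18 and 23. In IFNa livers 18 and 23 the shares were 3.81% (1.05% to 9.47%) and 6.35% (2.78% to 12.1%). None of the 69 and 17 members of Control livers 11 and 25 held one, with exact upper bounds of 5.21% and 19.5% on the share of members with a UMI. These intervals overlap, but they cover only the counting of cells within each liver. The difference between the groups was not tested, and cells are not replicates. In IFNa liver 18, 76 of 80 such UMIs came from 1 cell. Gata3 did not follow: it gave 101 CPM in the combination, 116 and 115 CPM in IFNa, and 103 and 183 CPM in Control.

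Il21 was detected in 46 of 528 members in the combination, 2 of 105 and 17 of 126 in IFNa livers 18 and 23, and 2 of 69 and 0 of 17 in Control livers 11 and 25. A single cell of Control liver 11 held 66 of its 69 Il21 UMIs, and the 0 of liver 25 has an exact upper bound of 19.5% on the share of members with a UMI. Bcl6 was found in 5.24% to 8.03% of thinned members and 6.27% to 12.9% of thinned B cells, so its share among members is at the level of a cell type that uses the gene itself. Il17a, the cytokine of T helper 17 cells, was detected in 3 members, all of the combination. Cd40lg gave 259 CPM in the combination, 243 and 194 CPM in IFNa, and 92.4 and 358 CPM in Control. The 2 Control livers were the lowest and the highest for it, and its log2 fold change was 0.12 ± 0.53 in IFNa over Control (edgeR adjusted p = 1) and -0.72 without Control liver 11.

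**Figure D3:**
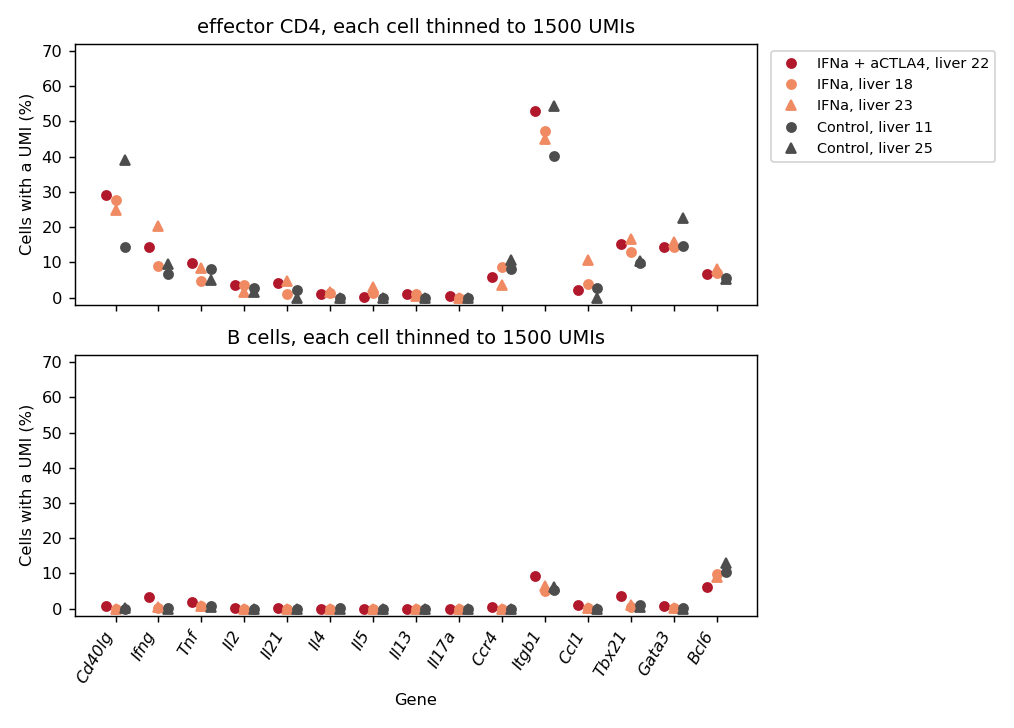
Expected share of cells (%) with at least 1 UMI of each helper gene after thinning each cell to 1500 UMIs, in effector CD4 T cells (top) and B cells (bottom), with 1 point per liver. Cd40lg was at 14.5% to 38.9% in members and at most 0.675% in B cells, while Bcl6 was as frequent in B cells.

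Other groups of genes gave no call that survived adjustment, apart from transcripts that are not typical of T cells. In IFNa over Control, 0 of 16 proliferation genes passed in edgeR and 5 had an unadjusted p under 0.05 in the lower direction (1.41% of all genes did), with a median log2 fold change of -1.44. Mki67 gave 100.1 CPM in the combination, 105 and 29.6 CPM in IFNa, and 70.4 and 607 CPM in Control. The high value of Control liver 25 is 73 UMIs, of which 69 lay in 2 cells. Of 10 regulatory T cell genes tested in the combination over IFNa, 0 passed in edgeR and 4 had an unadjusted p under 0.05 in the lower direction (0.785% of all genes did), with a median of -0.87. Ikzf2 gave 159 CPM in the combination, 420 and 285 CPM in IFNa, and 334 and 565 CPM in Control. Il2ra gave 59.4 CPM in the combination, 122 and 148 CPM in IFNa, and 125 and 49.9 CPM in Control. The combination was thus below both IFNa livers for each gene, and below all 4 other livers for Ikzf2.

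The combination over Control gave 13 calls (0.14% of genes tested), 12 higher and 1 lower (0.0108%), and the combination over IFNa 12 (0.129%), all 12 higher. Beside Ifi27l2a and Irf7, the genes named by the rule on size were secretory ones. Slpi, a secreted protease inhibitor, gave 1006 CPM in the combination, 4.63 and 4.08 CPM in IFNa, and 11 and 0 CPM in Control. It had a log2 fold change of 6.88 ± 0.52 in the combination over Control (edgeR adjusted p = 0.00157) and 7.83 ± 0.48 over IFNa (adjusted p = 0.000313), but 3788 of its 3948 UMIs lay in 2 cells. Jchain, which joins antibody molecules in plasma cells, gave 111 CPM in the combination, 1.54 and 1.02 CPM in IFNa, and 0 and 0 CPM in Control, with 292 of 435 UMIs in 2 cells. Mzb1, a chaperone of antibody secretion, gave 84.3 CPM in the combination, 1.54 and 1.02 CPM in IFNa, and 0 and 0 CPM in Control. Without the 19 members of the combination and 1 of IFNa liver 23 that held at least 20 immunoglobulin UMIs, an alternative chosen after seeing the data, the counts of calls were 1 in the combination over Control and 0 in the combination over IFNa (126 genes with an unadjusted p under 0.05 by edgeR). The part of plasma cell RNA in these calls was otherwise not tested. Rln3, which encodes the peptide hormone relaxin 3, was the call in the lower direction in the combination over Control. It gave 2.8 CPM in the combination, 24.7 and 16.3 CPM in IFNa, and 83.6 and 91.5 CPM in Control, with a log2 fold change of -4.90 ± 0.60 (edgeR adjusted p = 0.0269). Its Control value in liver 25 is 11 UMIs of 1 cell, and in Foxp3 cells it lay at 84.1 CPM in the combination, 149 and 147 CPM in IFNa, and 208 and 366 CPM in Control. Without members holding at least 20 immunoglobulin UMIs, the calls of Rln3 and Irf7 were lost too. Their log2 fold changes over Control were then -4.81 and 2.36 (edgeR adjusted p = 0.11 for each). Both calls were also lost without possible doublets (edgeR adjusted p = 0.195 and 0.1115), and that of Rln3 after thinning (0.508).

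Set against the Foxp3 CD4 cells of the same livers, the members had more of several helper genes and less of regulatory ones. The comparison used the library as a block and called 991 of 9279 genes (10.7%), 515 higher (5.55%) and 476 lower (5.13%) in members; it called 463 without liver 22 and 581 without IFNa liver 23. Cd40lg, on chromosome X, gave 259 CPM in members of the combination, 243 and 194 CPM in IFNa and 92.4 and 358 CPM in Control, against 14.6 CPM in Foxp3 cells of the combination, 24.4 and 3.83 CPM in IFNa and 6.55 and 0 CPM in Control. In each liver members were above the Foxp3 cells, with a log2 fold change of 4.31 ± 0.32 (edgeR adjusted p = 5.18e-05). Il2, the growth factor of T cells, gave 45.1 CPM in members of the combination, 21.6 and 23.5 CPM in IFNa and 17.6 and 8.31 CPM in Control, and was at 2.01 CPM in Foxp3 cells of the combination and 0 in those of the other 4 livers. Ifng was higher by 4.86 ± 0.51 (adjusted p = 0.000221), and Tnfsf8, the CD30 ligand, by 4.54 ± 0.29 (adjusted p = 2.4e-05), while Tnfrsf8, the CD30 receptor, was lower by 4.02 ± 0.36 in members (adjusted p = 0.000153) on the same scale. Tcf7, a transcription factor of memory and naive T cells, was higher by 3.78 ± 0.23 (adjusted p = 2.4e-05) and Fasl, a death ligand, by 3.16 ± 0.23 (adjusted p = 5e-05).

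Of 14 T helper 1 genes 11 were higher and 2 lower (Hopx among them), with a median log2 fold change of 1.07 against 0.015 over all genes. Of 9 naive and central memory genes 6 were higher. Of 11 regulatory T cell genes 10 were lower, and Nrp1, a semaphorin coreceptor, was higher. Il2ra was lower by 2.75 ± 0.30 (adjusted p = 0.0003), Ikzf2 by 1.81 ± 0.20 (adjusted p = 0.00029) and Ctla4 by 1.49 ± 0.16 (adjusted p = 0.00023), all by edgeR. Among 16 proliferation genes 7 were lower in members and 0 higher. Of 12 cytotoxic effector genes 4 were higher (Fasl, Klrd1, Nkg7 and Gzmk) and 2 were lower (Gzmb and Klrg1): granzyme B was at 92 CPM in members of the combination, 111 and 105 CPM in IFNa and 141 and 258 CPM in Control, against 605, 442, 508, 398 and 463 CPM in Foxp3 cells of livers 22, 18, 23, 11 and 25. Of 59 type I interferon genes 16 were higher and 1 (Isg20) lower in members, with a median log2 fold change of 0.22. Of 11 glycolysis genes 4 were lower. The calls of Nkg7 and Isg20 were lost without liver 22 (adjusted p = 0.139 and 0.0524), and that of Nkg7 also without IFNa liver 18 or 23. Markers of other cell types moved too: Cd79b and Ighm of B cells were lower in members by 1.32 ± 0.31 and 1.51 ± 0.19, C1qb and Cd14 of macrophages by 1.08 ± 0.31 and 1.22 ± 0.22, and the haemoglobin gene Hbb-bs was higher by 3.13 ± 0.75 (edgeR adjusted p = 0.0192, 0.000729, 0.0493, 0.00556 and 0.0229), and their part in the result was not tested. Foxp3 cells had more UMIs each, as given above, and the part of depth in these differences was not tested.

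Set against the Ccr7 CD4 cells, members were lower for naive and central memory genes and higher for tissue and effector genes. The comparison called 492 of 6893 genes (7.14%), 210 higher (3.05%) and 282 lower (4.09%) in members; it called 185 without IFNa liver 18, 318 without Control liver 11 and 327 without liver 22. All 10 naive and central memory genes were lower, with a median log2 fold change of -2.02 against -0.00024 over all genes: Satb1, a chromatin organiser, was lower by 2.50 ± 0.25 (edgeR adjusted p = 0.00036). Igfbp4 was lower by 4.03 ± 0.38 (adjusted p = 0.00029); it gave 16.6 CPM in members of the combination, 18.5 and 24.5 CPM in IFNa and 207 and 0 CPM in Control, against 292 CPM in Ccr7 cells of the combination, 647 and 278 CPM in IFNa and 1238 and 1293 CPM in Control. Members were below Ccr7 cells in every liver. Cxcr6 was higher by 1.96 ± 0.22 (adjusted p = 0.00075), Gna15, a G protein subunit, by 2.28 ± 0.24 (adjusted p = 0.0006) and Gzmb by 2.14 ± 0.49 (adjusted p = 0.022). Of 13 T helper 1 genes 7 were higher, of 9 inhibitory receptor genes 6 were higher and 1 lower, of 7 residency genes 5 were higher, and of 8 regulatory T cell genes 6 were higher. Cd40lg was higher by 0.70 ± 0.18 (adjusted p = 0.041) over Ccr7 cells, and the difference from the fold change over Foxp3 cells was not tested. Its call was lost without liver 22, 18, 23 or 25 (adjusted p from 0.0678 to 0.197), and that of Gzmb without IFNa liver 18 (0.0854) or Control liver 11 (0.0513). The B cell genes Cd79a and Cd79b were lower in members by 2.70 ± 0.46 and 2.46 ± 0.39 and the macrophage gene Lyz2 was higher by 1.47 ± 0.32 (edgeR adjusted p = 0.00539, 0.0038 and 0.0171), and their part in the result was not tested. The 3 classes were cut from the same libraries by the gate genes, and Ccr7 cells of Control liver 25 number 10.

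**Figure D4:**
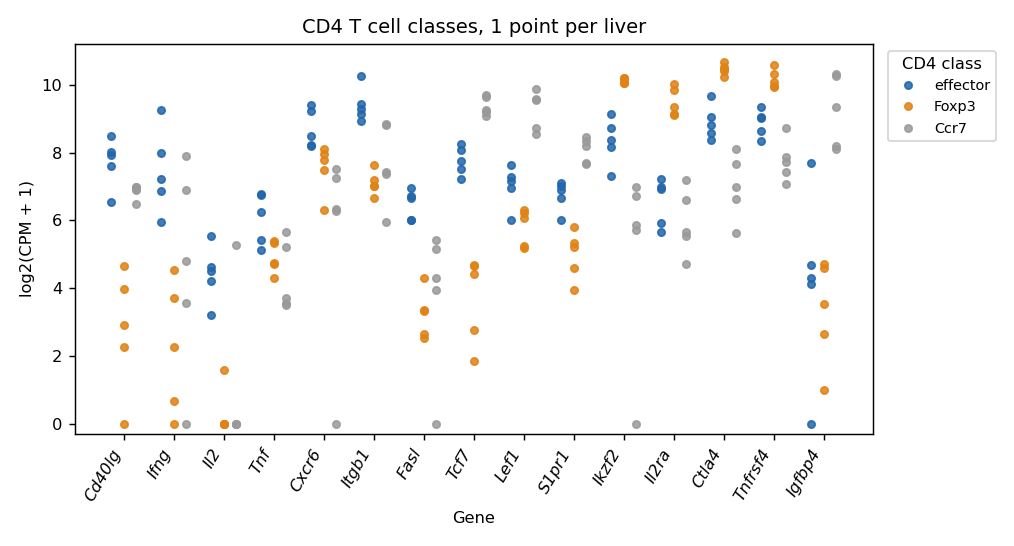
Level of 15 genes as log2(CPM + 1) in effector, Foxp3 and Ccr7 CD4 T cells (left to right within a gene), with 1 point per liver. Cd40lg and Tcf7 were above the Foxp3 cells in each liver, Il2ra and Ikzf2 were below, and Igfbp4 was below the Ccr7 cells.

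Clonotypes, taken as a TRB V gene, J gene and CDR3 nucleotide sequence, reached 25 members in the combination, 6 and 13 in IFNa livers 18 and 23, and 2 and 2 in Control livers 11 and 25. These sizes depend on the number of members. The largest clonotype held 4.7% of members in the combination, 5.71% and 10.3% in IFNa, and 2.9% and 11.8% in Control, so the groups overlapped. CDR3 is the stretch of the beta chain that contacts the peptide, on the Trb locus of chromosome 6. Large clonotypes are shown for the combination and IFNa livers, and for Control, where none passed 2 members, 2 of the 5 tied clonotypes of liver 11 and 1 of the 2 of liver 25, with capitals for the bases between the germline V and J ends, which come from D segments and added nucleotides.

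Combination, 25 members, TRBV13-1 and TRBJ2-1: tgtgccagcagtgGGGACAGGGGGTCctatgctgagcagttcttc
Combination, 22 members, TRBV19 and TRBJ1-4: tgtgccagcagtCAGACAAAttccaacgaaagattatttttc
IFNa liver 18, 6 members, TRBV16 and TRBJ2-7: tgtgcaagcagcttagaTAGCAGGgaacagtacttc
IFNa liver 23, 13 members, TRBV12-1 and TRBJ2-1: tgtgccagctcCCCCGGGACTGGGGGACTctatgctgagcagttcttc
Control liver 11, 2 members, TRBV1 and TRBJ2-7: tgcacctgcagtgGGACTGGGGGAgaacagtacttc
Control liver 11, 2 members, TRBV2 and TRBJ2-5: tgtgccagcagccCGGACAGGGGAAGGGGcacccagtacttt
Control liver 25, 2 members, TRBV15 and TRBJ2-5: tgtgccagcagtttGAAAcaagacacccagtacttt

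Members of the combination fell into 311 clonotypes and those of IFNa livers 18 and 23 into 88 and 82, while Control livers 11 and 25 held 64 and 15. These numbers depend on the V gene label, because a label that names 2 genes was counted apart from either gene alone. In the combination, 7 members labelled TRBV12-2+TRBV13-2 and 2 labelled TRBV13-2 had the same TRBJ1-5 CDR3 bases and were counted as 2 clonotypes. Clonotypes of at least 2 members held 56.6% of members in the combination (exact 95% interval 52.3% to 60.9%), 26.7% and 46.8% in IFNa livers 18 and 23, and 14.5% and 23.5% in Control livers 11 and 25. Both IFNa livers were above both Control livers, and the mean difference of 17.74 points had an exact permutation p of 0.3333, the smallest possible. This share rises with the number of cells sampled. Its interval treats cells as independent, but cells of 1 clonotype are counted as expanded together, so the interval is too narrow. In a draw of 17 members, the expected number of clonotypes was 16.2 in the combination, 16.3 and 14.8 in IFNa, and 16.7 and 15 in Control, so the groups overlapped (exact permutation p = 0.6667). Clonotypes of at least 5 members numbered 14 in the combination (132 members), 1 and 4 in IFNa livers 18 and 23 (6 and 35 members), and 0 in both Control livers. Their number also depends on the number of cells sampled.

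The larger clonotypes differed in gene level from single members of the same liver. In the combination, members of clonotypes of at least 5 gave 88.5 CPM of Tcf7, against 319 in members of clonotypes of 1, and 109 of Il7r, the interleukin 7 receptor, against 421. They gave 789 of Cxcr6 against 440, and 1065 of Nkg7, a gene of cytotoxic granules, against 531. In IFNa liver 23 the same contrast was 3.81 against 248 for Tcf7, 1056 against 494 for Cxcr6, 3250 against 658 for Nkg7 and 1181 against 412 for Tox. The direction was alike in those livers for these genes. IFNa liver 18, whose only clonotype of that size is the one of 6 members shared with Foxp3 cells, gave 0 against 326 for Tcf7 but 211 against 392 for Cxcr6, 316 against 707 for Nkg7 and 184 against 367 for Tox, so Cxcr6, Nkg7 and Tox ran the other way there. Control held no clonotype of 5 members, and the contrast was not tested. Cells of 1 clonotype share a parent cell and are not independent.

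Sharing of clonotypes with other classes was uneven across livers. Members whose clonotype was also in a Foxp3 cell of the same liver were 11 of 528 in the combination (2.08%), 16 of 105 and 11 of 126 in IFNa livers 18 and 23 (15.2% and 8.73%), and 8 of 69 and 0 of 17 in Control livers 11 and 25 (11.6%, and 0 with an exact upper bound of 19.5%), 46 of 845 in all. The IFNa liver 18 clonotype printed above had 6 members and 18 Foxp3 cells, and the TRBV1 one of Control liver 11 had 2 members and 9 Foxp3 cells, whereas its TRBV2 one was in no Foxp3 cell. These members held more Ikzf2 than the others, at 368 CPM in the combination, 987 and 1456 in IFNa and 1128 in Control liver 11, against 152, 290 and 190, and 225 in the other members of those livers. Cd40lg went the other way, at 142 in the combination, 0 and 80.2 in IFNa and 0 in Control liver 11, against 255, 298 and 206, and 104. Members that shared a clonotype with a Ccr7 cell were 104 in the combination (19.7%), 3 and 20 in IFNa livers 18 and 23 (2.86% and 15.9%), and 1 and 0 in Control. The 104 fell into 28 clonotypes, with 25 and 22 of them in the combination clonotypes printed above, and the 20 fell into 5. Members that shared a clonotype with a CD8 cell numbered 39, all in the combination, in 12 clonotypes. Of the 39, 22 were the TRBV19 clonotype printed above, which was found in 1 CD8 cell. A TRBV13-3 clonotype had 2 members and 244 CD8 cells, and a TRBV16 one had 2 members and 63 CD8 cells. Finding a shared clonotype depends on the number of cells sampled in both classes. CD8 cells numbered 1939 in the combination, 290 and 537 in IFNa, and 253 and 39 in Control. Ccr7 cells numbered 138 in the combination, 79 and 43 in IFNa, and 79 and 10 in Control.

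No nucleotide clonotype, with the V gene label as part of it, was found in members of 2 livers. Among 550 clonotypes by amino acids, 4 occurred in 2 livers, each with the same V and J genes and between 1 and 3 differing bases. The pair with 3 differing bases, in capitals, is the same CDR3 protein sequence encoded by different bases in the IFNa livers.

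IFNa liver 18, TRBV19 and TRBJ2-4: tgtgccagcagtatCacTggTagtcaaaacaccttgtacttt
IFNa liver 23, TRBV19 and TRBJ2-4: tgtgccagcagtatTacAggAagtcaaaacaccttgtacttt

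**Figure D5:**
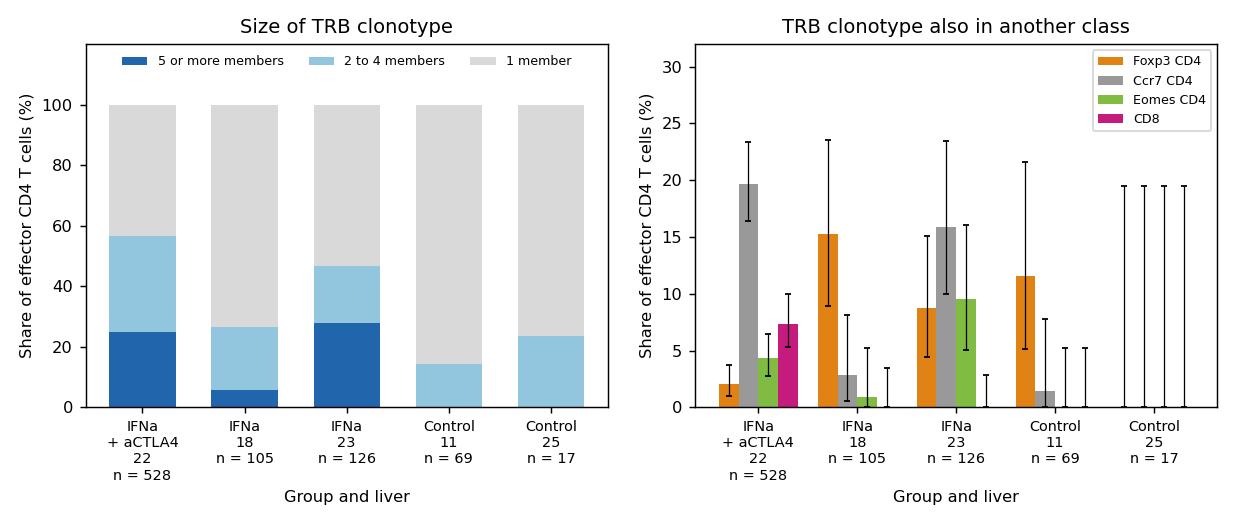
Left, share of effector CD4 T cells (%) in TRB clonotypes of 5 or more, 2 to 4 or 1 member, by group and liver. Right, share (%) whose clonotype was also found in another class of the same liver, with exact 95% binomial intervals. These treat cells as independent, but all cells of 1 clonotype count as shared together, so the intervals are too narrow. The Ccr7 share was 19.7% in the combination, and Control liver 25 had no shared clonotype among 17 members.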

How the data were processed

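The authors deposited raw UMI counts per gene and barcode; the submitters' processing notes name Cell Ranger 7.0.1 and mm10, and tables of V(D)J contigs with their reads and UMI counts per barcode, deposited without normalisation. Gene expression and V(D)J libraries were joined by liver and barcode. Members, lists and tests were chosen with earlier results of these data known. Counts of members were summed per liver, filtered with filterByExpr, scaled with TMM (factors 0.976 to 1.02) and compared by the quasi-likelihood test of edgeR 4.0.16 (R 4.3.3) in 1 fit of the 3 groups; an SE is the size of the log2 fold change divided by the root of its F. With 1 library, the combination is taken to vary as the other groups do. Class comparisons used the library as a block, since classes of a liver come from the same library, and levels of other classes and of clonotypes are CPM without TMM. Members of a liver had 117574 to 4020524 UMIs in all. Simulated counts with known changes were used to check the test. In IFNa over Control it recovered 4.62%, 66.7% and 92.2% of simulated log2 changes of 1, 2 and 4 at adjusted p under 0.05. In the combination over Control it recovered 6.25%, 72.6% and 96.8%. A gene that did not pass may therefore still differ. The spread of the simulated counts was set beforehand and not taken from these data. Genes were named by a rule on size (up to 10 each way per comparison with adjusted p under 0.05, at least 20 CPM and no overlap of libraries), the first 4 tested genes of each list with up to 4 that passed, and the helper lists; others were named after their values were seen. Of 32285 gene IDs, 32235 matched GENCODE annotation, and Mnda and H2-T10 of the lists were not analysed. Alternatives covered DESeq2 1.42.0, filters, doublets, thinning, replicates left out and, chosen after seeing the data, robust edgeR and 2 sets of members. Thinning left out 5 members under 1500 UMIs in the combination, 1 in IFNa liver 23 and 2 in Control liver 11. Some genes, and 1 alternative defined by such a gene, are not reported here.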

Additional observations from a re-analysis of the deposited data

Results flagged for a closer look

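The IFNa effect (IFNa over Control, log2) differed between members and Foxp3 CD4 cells for 12 genes, by the interaction test with the library as a block (edgeR, adjusted p under 0.05). The difference, members minus Foxp3 cells, was -7.87 for Gzma, -3.28 for Spp1, 10.8 for Trbv17, -10.3 for Clu, -4.08 for Hist1h2ab, -4.1 for Hist2h2bb, 11.8 for Cd209a, -3.25 for Gm20628, -2.65 for Ube2c, -3.07 for Fn1, 4.33 for Trav9-2 and 6.26 for Ly6d. Against Ccr7 CD4 cells it differed for 3 genes, by -12.1 for Arg1, -6.3 for Cxcl10 and 8.89 for Wfdc2. Gzma, the granule protease granzyme A, lay at 38.6 and 19.4 CPM in members of IFNa livers 18 and 23, and 4.4 and 490.5 CPM in those of Control livers 11 and 25, where 45 of 59 UMIs of liver 25 were in 1 cell; in Foxp3 cells it lay at 121 and 115 CPM in IFNa and 1.79 and 0 CPM in Control. Clu, Cd209a, Arg1 and Wfdc2 are not typical T cell genes, and few members carried them: 67 of 68 Clu UMIs of IFNa liver 23, 51 of 51 Cd209a UMIs of IFNa liver 18 and 101 of 101 Wfdc2 UMIs of Control liver 11 came from 1 cell each. Hist1h2ab, Hist2h2bb, Gm20628 and Ube2c lay at 487, 162, 211 and 414 CPM in the 17 members of Control liver 25. In members of Control liver 11 they lay at 33, 24.2, 50.6 and 63.8 CPM, scaled as in this interaction fit. All the fold changes of genes with 0 UMIs in a group depend on the prior count and bound nothing. Without the library block no gene passed in either test (edgeR), with 342 and 218 genes at an unadjusted p under 0.05. No cause was tested.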

How the results depend on the processing

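The number of genes called depended on the processing, and the cause was not tested. In IFNa over Control the 1 call became 13 with DESeq2, 170 with no low-count filter, 6 without possible doublets, 39 in members without Il2ra or Ikzf2, 25 after thinning and 5 with robust edgeR; leaving out 1 library gave 0 (without liver 22) to 94 (without liver 18). In the combination over Control the 13 calls became 194 with no filter, 0 without possible doublets (282 genes at an unadjusted p under 0.05), 51 without Il2ra or Ikzf2, 21 after thinning, 20 with robust edgeR and 1 without high-immunoglobulin barcodes, with 17 in DESeq2 and 23 to 89 without 1 library. In the combination over IFNa the 12 calls became 80 with no filter, 0 without possible doublets and 0 without high-immunoglobulin barcodes (93 and 126 at an unadjusted p under 0.05), and 13 to 44 without 1 library. Without Control liver 11 the median log2 fold change of all genes moved to 0.16 and 0.17 in the comparisons with Control. The interferon list kept a positive median log2 fold change over Control in every alternative run, at 1.04 to 1.23 in the combination and 1.12 to 1.28 in IFNa, apart from 1 set of members. In that set, not described here, these medians were 0.601 and 0.841, the combination over Control gave 23 calls, and Gata3, Mki67 and Ifnar1 changed sign in IFNa over Control (0.56, 0.27 and -0.97).

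Against Foxp3 cells the 991 calls were 680 with no replicate block (the library is the block), 1737 with no filter and 463 to 1276 without 1 library. Against Ccr7 cells the 492 were 274 with no replicate block, 1007 with no filter and 185 to 507 without 1 library. The interactions gave 94 and 50 calls with no filter, and 0 and 0 with no replicate block. No paired analysis was possible because the treatment groups share no replicate number. No called gene that the text names changed direction in the alternatives run. In IFNa over Control, log2 fold changes of uncalled genes did: Cd40lg was -0.0160 with DESeq2, Jak1 and Ly6c2 were -0.084 and -1.08 without possible doublets, Gata3 was 0.21 in members without Il2ra or Ikzf2, and Ifnar1 was -0.40 after thinning. Leaving out 1 library at a time gave -0.72 to 1.24 for Cd40lg, -0.17 to 0.25 for Jak1, -0.83 to 3.26 for Ly6c2, -0.091 to 0.34 for Ifnar1 and -0.67 to 0.17 for Gata3.

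The share of CD4 T cells without possible doublets was 72.5% in the combination, 41.7% and 63% in IFNa, and 31% and 41.9% in Control, and after thinning 81.1%, 65.6% and 72.9%, and 51.5% and 63.6%. Expansion counted among all kept barcodes was 63.3%, 39.1% and 57.1%, and 27.5% and 23.5% in Control. Control liver 25 has 17 members, the fewest.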
